A study of Mus musculus with 4 samples.

Results

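The genes of the circadian clock were examined in ATAC-Seq data from primary mouse rib chondrocytes, the cells that make cartilage. ATAC-Seq uses the Tn5 transposase, which inserts sequencing adapters into DNA that is not closed off by nucleosomes, to map open chromatin. The 10 genes were *Clock*, *Per1*, *Per2*, *Per3*, *Cry1*, *Cry2*, *Nr1d1*, *Nr1d2*, *Dbp* and *Bhlhe40*, chosen by name out of the 18101 protein-coding genes whose symbols stand in both annotations used. The choice was made with earlier results of these data known. For each gene, the promoter was the window within 1 kb of the transcription start site (TSS, the 5′ end of the annotated gene), and the locus was the gene body with 50 kb on each side. There were 4 libraries, each of cells from rib cartilage of newborn mice. The Cho group had 2 replicates of primary chondrocytes, called Cho1 and Cho2, whose labels give no genotype. The WT library and the library of E160(delta/delta);E308(delta/delta) mice, called the E160/E308 deletion here, had 1 each; these mice lack E160 and E308, elements upstream of the cartilage gene *Sox9*, through CRISPR/Cas9 editing of the germ line, so the deletion is not limited to cartilage, and WT mice are described as littermates. With 1 library per genotype, WT and the deletion are compared as libraries, without a p-value.

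The mammalian clock is a loop of transcription in which CLOCK and its partner BMAL1 (*Arntl*) bind E-boxes and raise the transcription of the period genes (*Per1*, *Per2*, *Per3*) and the cryptochrome genes (*Cry1*, *Cry2*). PER and CRY proteins then inhibit CLOCK and BMAL1. *Nr1d1* and *Nr1d2* encode the REV-ERB repressors, which bind the same element as the ROR activators. DBP is an activator that binds D-boxes, and BHLHE40 (DEC1) is a repressor that binds E-boxes. Cartilage has a clock of its own. The time of day at which the chondrocytes were taken is not given in the sources used here, and cells within 2 passages of culture were used, so no time point can be assigned to any value.

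The sequences of the promoters that hold a known clock motif come first. Promoter peaks described afterwards lie on those of *Cry1*, *Per3*, *Cry2* and *Nr1d1*. The promoter peak of *Per1* lies upstream of its printed sequence. Promoter sequences of 300 bases (250 before and 50 after an annotated start) were taken from RefSeq (GRCm38.p6). Of the 10 genes, 8 had an entry, and *Per2* and *Bhlhe40* had none. The motifs searched on both strands were the E-box (CACGTG), the E′-box (CACGTT), the D-box (TTATGTAA, TTACATAA or TTACGTAA), the core shared by ROR and REV-ERB (TAGGTCA) and the cAMP response element, CRE (TGACGTCA). Each sequence runs 5′ to 3′ on the strand of the gene, and capitals mark the motifs.
*Cry1* promoter, chr10:85185005-85185304, minus strand, an E′-box and an E-box: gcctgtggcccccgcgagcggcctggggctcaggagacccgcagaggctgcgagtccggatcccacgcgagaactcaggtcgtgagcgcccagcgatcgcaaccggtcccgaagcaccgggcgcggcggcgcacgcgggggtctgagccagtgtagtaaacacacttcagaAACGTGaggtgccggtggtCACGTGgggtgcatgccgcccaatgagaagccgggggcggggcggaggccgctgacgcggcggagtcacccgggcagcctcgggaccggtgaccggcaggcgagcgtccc
*Per3* promoter, chr4:151044616-151044915, minus strand, D-boxes: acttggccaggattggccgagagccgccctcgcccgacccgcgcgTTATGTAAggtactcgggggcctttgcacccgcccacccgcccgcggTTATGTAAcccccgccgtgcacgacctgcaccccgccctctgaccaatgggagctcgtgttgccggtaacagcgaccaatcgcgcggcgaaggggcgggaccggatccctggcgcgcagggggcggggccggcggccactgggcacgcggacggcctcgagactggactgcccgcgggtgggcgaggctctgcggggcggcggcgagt
*Per1* promoter, chr11:69098699-69098998, plus strand, an E-box: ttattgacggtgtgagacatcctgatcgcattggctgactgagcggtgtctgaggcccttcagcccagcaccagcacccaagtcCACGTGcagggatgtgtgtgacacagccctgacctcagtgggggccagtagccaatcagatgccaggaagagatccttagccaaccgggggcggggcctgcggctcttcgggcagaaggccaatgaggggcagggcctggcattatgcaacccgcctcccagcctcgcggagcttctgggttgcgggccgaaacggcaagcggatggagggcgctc
*Cry2* promoter, chr2:92434020-92434319, minus strand, an E′-box: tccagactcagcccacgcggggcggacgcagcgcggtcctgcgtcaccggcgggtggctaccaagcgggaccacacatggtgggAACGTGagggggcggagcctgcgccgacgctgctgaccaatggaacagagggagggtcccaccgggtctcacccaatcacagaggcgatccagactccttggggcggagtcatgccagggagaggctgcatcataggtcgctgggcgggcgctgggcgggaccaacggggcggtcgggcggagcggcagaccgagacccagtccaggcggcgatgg
*Nr1d1* promoter, chr11:98775328-98775627, minus strand, an E′-box: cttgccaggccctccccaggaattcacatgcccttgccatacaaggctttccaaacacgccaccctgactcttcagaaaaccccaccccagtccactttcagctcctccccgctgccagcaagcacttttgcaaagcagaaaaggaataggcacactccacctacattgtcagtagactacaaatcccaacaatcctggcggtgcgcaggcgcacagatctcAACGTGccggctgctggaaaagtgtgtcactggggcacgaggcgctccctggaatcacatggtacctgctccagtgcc

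The E-box of *Cry1* began 60 bases before the annotated start and its E′-box 79 bases before it. An E-box was in the promoters of 2 of the 8 genes (*Cry1* and *Per1*), and 9.40% of the promoters of 14515 genes with an entry held one. An E′-box was in 3 of the 8 (*Cry1*, *Cry2* and *Nr1d1*), against 5.58% of all. In *Nr1d1* it began 28 bases before the start. Both D-box copies of *Per3*, at 205 and 158 bases before the start, were the same 8 letters, and *Per3* was the 1 gene of the 8 with a D-box, against 1.25% of all. None of the 8 promoters held the ROR/REV-ERB core or a CRE as spelled here, against 2.69% and 2.67% of all. With 500 bp on each side of the gene 5′ end in place of the RefSeq entries, which brings in *Per2* and *Bhlhe40*, an E-box lay at 5 of the 10 genes, against 17.4% of all genes, and an E′-box at 5, against 15.8%. *Per2* and *Per3* then held a D-box (2.81% of all) and *Dbp* the ROR/REV-ERB core (7.06%). The E-box, the E′-box and the CRE contain a CpG (C followed by G), and the shares were not matched for CpG content. The median over all promoter entries was 14 CpG (quartiles, 4 and 25). The printed promoters with an E-box or E′-box held 38 (*Cry1*), 30 (*Cry2*), 16 (*Per1*) and 9 (*Nr1d1*). The part of CpG content in the motif shares was not tested. The letters alone do not show that a factor binds.

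Open sites inside the genes carried motifs as well. For 4 of them, the 151 bases centred on the WT summit, the position of highest signal in a peak, are given from NCBIM37. They run on the strand of the gene, with the motifs in capitals. Each distance, that of the *Cry1* intron site included, is counted from the TSS. Each of the 4 was open in all 4 libraries and holds a motif that was not in the RefSeq promoter of its gene. Sites in *Nr1d1* at 2285 bp and in *Dbp* at 2740 bp, described below, also met this and are not printed.
*Cry1*, 23.1 kb into the first intron, chr10:84624616-84624766, minus strand, the ROR/REV-ERB core in both orientations: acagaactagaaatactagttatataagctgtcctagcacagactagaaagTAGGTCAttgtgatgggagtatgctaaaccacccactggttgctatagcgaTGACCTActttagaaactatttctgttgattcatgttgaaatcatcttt
*Cry2*, 10.1 kb into the gene, chr2:92263988-92264138, minus strand, a pair of E-boxes: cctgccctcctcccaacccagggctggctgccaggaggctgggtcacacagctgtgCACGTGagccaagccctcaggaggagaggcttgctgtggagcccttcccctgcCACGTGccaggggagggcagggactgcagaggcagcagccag
*Nr1d1*, 1295 bp into the gene, chr11:98635277-98635427, minus strand, a D-box: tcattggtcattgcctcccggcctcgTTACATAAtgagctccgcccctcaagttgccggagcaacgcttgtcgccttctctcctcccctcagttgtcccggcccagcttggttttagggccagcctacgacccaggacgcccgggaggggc
*Per1*, 1966 bp into the gene, chr11:68910610-68910760, plus strand, a CRE: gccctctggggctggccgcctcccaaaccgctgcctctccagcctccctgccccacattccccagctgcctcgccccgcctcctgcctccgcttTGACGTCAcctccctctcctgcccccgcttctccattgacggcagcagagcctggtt

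The promoters of all 10 clock genes were open. Each of the 4 peak lists held a peak with its summit within 1 kb of the TSS of 10 of 10 genes. Over all 18101 genes, the share of promoters with such a peak was 58.6% in Cho1, 64.7% in Cho2, 62.0% in WT and 67.8% in the E160/E308 deletion. Since the genes were chosen with earlier results of these data known, the full count is a description and not a test. Most summits lay just upstream of the TSS: at 10 of 10 genes in Cho1, WT and the deletion, and at 8 of 10 in Cho2. The 5′ ends came from RefSeq for Cho2 and from GENCODE for the other lists. For the exceptions in Cho2, *Clock* and *Per1*, the builds were also compared by distance from a RefSeq promoter sequence placed in both. On that measure the Cho2 and WT summits lay within 150 bp of each other. Over all promoters with a peak, the summit lay upstream at between 51.0% and 61.0%. The peak lists held 76242 peaks in Cho1, 148330 in Cho2, 90971 in WT and 169591 in the deletion. Of 7 chondrocyte marker genes, the promoters of 3 in Cho1 and 6 in each other library had a peak, *Sox9* and *Col2a1* in every library. Of the genes that mark other cells, none of 3 blood or 2 keratinocyte genes had one, against 1 of 3 muscle genes (*Myod1*) in every library but Cho1 and 1 or 2 of 3 endothelial genes.

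The strength of a peak was read on 2 scales. Fold enrichment, as deposited, is the pileup of tags at the summit over the background the peak caller used there, with 1 added to both. In Cho1 the caller used 1 constant background, and in the other lists a local one that rises where tags are dense nearby. The scaled pileup is the summit pileup divided by the most frequent background of the library, and it leaves the local background out.

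*Clock* encodes the DNA-binding activator of the loop. The fold enrichment of its promoter was 14.8 in Cho1, 12.5 in Cho2, 11.1 in WT and 9.14 in the deletion. The Cho mean was 13.6 ± 1.64 (SD, n = 2). Its scaled pileup was 24.9, 47.0, 74.9 and 54.3 in the same order, the lowest of the 10 genes in each library but Cho1, where 3 genes were lower. In Cho2 the summit lay 514 bp downstream of the 5′ end that RefSeq gives, which is the farthest of any gene here. With a window of 500 bp that peak was no longer counted, and 9 of 10 genes had one. RefSeq and GENCODE place the 5′ end of *Clock* differently. By distance from the RefSeq promoter sequence placed in both builds, the Cho2 summit lay within 150 bp of the WT summit, which was at -253 bp. The position in Cho2 is thus not a shift of the open site.

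Among the period genes, which encode inhibitors of CLOCK, *Per1* had a promoter fold enrichment of 25.8 in Cho1, 9.55 in Cho2, 6.17 in WT and 5.36 in the deletion. In every library but Cho1 this was the lowest fold enrichment of the 10 genes. On the scaled pileup *Per1* stood at 43.9, 229, 150 and 110, and in Cho2 this was the highest of the 10. The local background at this peak was 46.1 tags in Cho2, which is 23.6 times the library background, and 22.0 and 19.3 times in WT and the deletion. No other gene of the 10 had a higher ratio of local to library background in these 3 libraries. The *Per1* promoter peak lay at the gene 5′ end and not on the *Per1* sequence printed above. In NCBIM37 the WT peak spanned 68908198 to 68908863 and the printed sequence 68912201 to 68912500.

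*Per2* had a fold enrichment of 14.4, 9.92, 9.77 and 7.70 in Cho1, Cho2, WT and the deletion, with scaled pileups of 24.1, 193, 133 and 104. *Per3* went the other way between the Cho replicates, with a fold enrichment of 8.02 in Cho1 and 15.1 in Cho2. It stood at 14.4 in WT and 13.99 in the deletion. Its peak was the weakest of the 10 in Cho1, on 18 tags at the summit, and the second highest in fold enrichment in WT. The D-box motifs printed above lie under this peak: the WT summit was at -253 bp from the TSS, and 1 D-box lay within 100 bp of it.

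The cryptochrome genes encode the repressors that act with PER. *Cry1* had a promoter fold enrichment of 19.4, 15.9, 10.9 and 13.4 in Cho1, Cho2, WT and the deletion, and *Cry2* had 27.0, 18.7, 15.2 and 10.8. *Cry2* had the highest promoter fold enrichment of the 10 in Cho2 and WT. Its scaled pileups of 46.0, 194, 169 and 112 were all higher than those of *Cry1*, which were 32.9, 92.0, 80.4 and 83.0. The Cho means of fold enrichment were 17.7 ± 2.47 for *Cry1* and 22.9 ± 5.88 for *Cry2* (SD, n = 2). These means differed by less than the larger SD, but *Cry2* was higher than *Cry1* in each Cho replicate. The SD also takes in the unlike backgrounds of Cho1 and Cho2.

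Of the REV-ERB genes, *Nr1d2* had the wider spread between the Cho replicates in fold enrichment, for which these lists used unlike backgrounds. Its promoter fold enrichment was 50.7 in Cho1, on 119 tags, and 13.1 in Cho2, a Cho mean of 31.9 ± 26.6 (SD, n = 2). It was 11.6 in WT and 9.11 in the deletion. *Nr1d1* had 13.1, 9.83, 8.28 and 6.92 in the same order. On the scaled pileup *Nr1d2* was 87.0, 179, 172 and 110 and *Nr1d1* was 21.9, 172, 130 and 105, so the genes lay close in Cho2 and the deletion and apart in Cho1. On that scale *Nr1d1* had the wider spread between the Cho replicates, with an SD of 106 against 65.3 for *Nr1d2* (n = 2).

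*Dbp*, a direct target of CLOCK, had a promoter fold enrichment of 15.6, 13.5, 10.5 and 8.99 and a scaled pileup of 26.3, 167, 139 and 101 in Cho1, Cho2, WT and the deletion. *Bhlhe40* had 32.5, 14.0, 9.10 and 8.17 in fold enrichment, and 55.6, 173, 150 and 115 in scaled pileup. The *Bhlhe40* interval was the widest of the 10 in every library, from 1029 bp in WT to 2589 bp in Cho1.

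**Figure D1:**
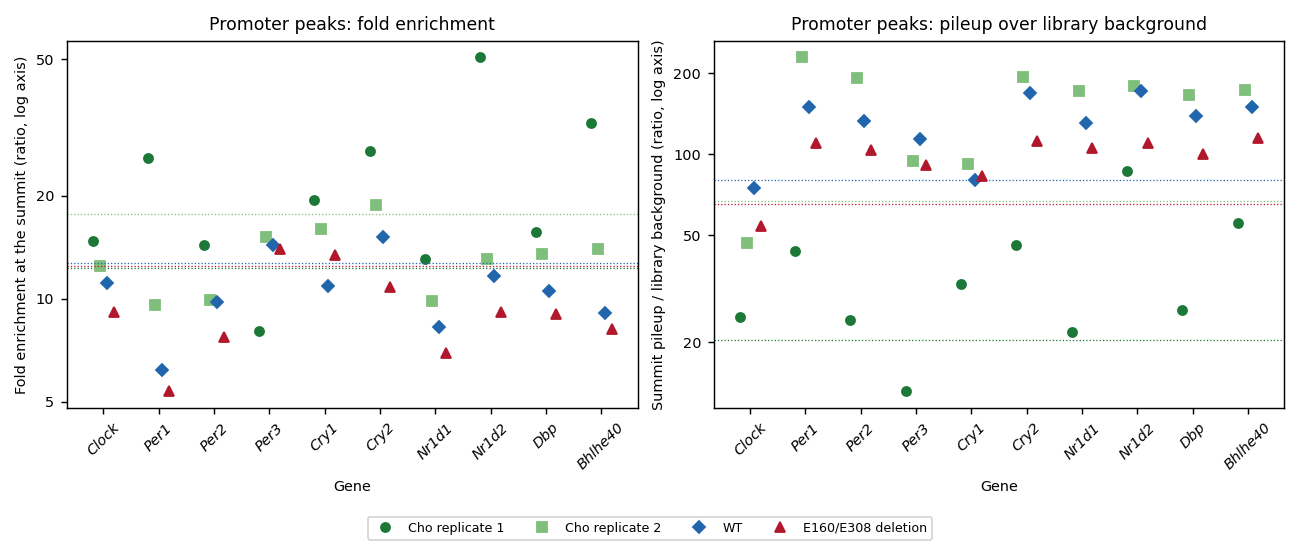
Promoter peaks of the 10 clock genes in each of the 4 libraries (one point per gene and library), as fold enrichment (left) and summit pileup over library background (right), both as ratios on log axes; dotted lines are the medians over all promoters with a peak in that library. On the left 9 of the 10 Cho1 points lie above their line and 1 or 2 points of each other library do; on the right 8 or 9 of 10 lie above in every library.

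The place of the clock genes among all promoters depended on the scale. By fold enrichment, the median percentile of the 10 genes among promoters with a peak was 68.3 in Cho1, 32.8 in Cho2, 35.3 in WT and 26.0 in the deletion. By scaled pileup it was 68.3, 90.2, 88.1 and 91.1. The scaled pileup was above the median of all promoters at 9, 9, 8 and 9 of the 10 genes. The fold enrichment was above it at 9 genes in Cho1 but at 1 in Cho2 and 2 in WT and in the deletion. The local background at the clock promoters moved with this difference: its median over the 10 genes was 11.9 times the library background in Cho2, 10.9 times in WT and 10.2 times in the deletion, against medians of 3.20, 3.38 and 3.31 times over all promoters with a peak. Its part in the percentiles was not tested. In Cho1, with 1 constant background, both scales give the same order by construction.

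*Per1* moved the farthest between the scales, from percentile 9.67 to 94.0 in WT and from 6.61 to 94.8 in the deletion. *Clock* moved little, from 38.4 to 44.5 in WT and from 26.5 to 37.9 in the deletion. By scaled pileup, *Per1*, *Cry2*, *Nr1d2* and *Bhlhe40* were above the 90th percentile in Cho2, WT and the deletion. *Clock* was below the 50th in these 3 libraries. *Cry1* was at 64.0 in Cho2, 49.2 in WT and 70.0 in the deletion.

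**Figure D2:**
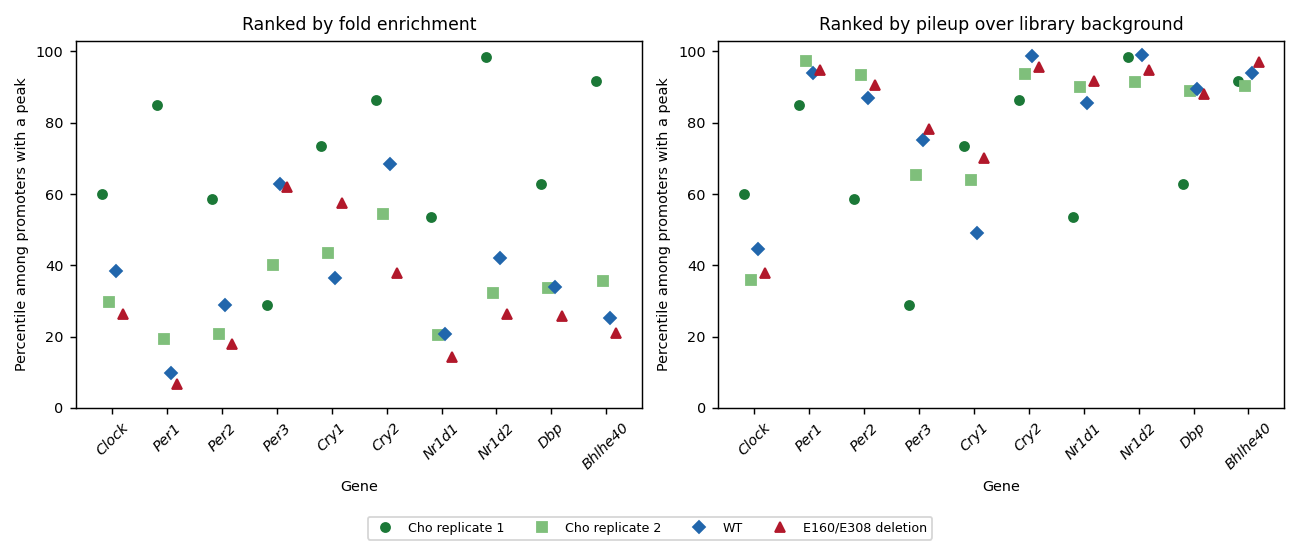
Percentile of each clock promoter among all promoters with a peak in the same library, ranked by fold enrichment (left) and by summit pileup over library background (right); one point per gene and library. Ranked by fold enrichment, *Per1* lies at percentile 9.67 in WT, and ranked by pileup at 94.0, while the Cho1 points are the same in both panels.

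Between WT and the deletion, no clock promoter differed by 2-fold. In such bulk libraries, a site open in fewer cells and a site less open in each cell cannot be told apart. The fold enrichment was lower in the deletion library at 9 of the 10 genes, from a log2 ratio of -0.49 at *Cry2* to -0.04 at *Per3*, and higher at *Cry1*, with 0.30. The median log2 ratio was -0.24, against 0.01 over the 11185 promoters with a peak in both libraries, of which 47.6% were lower in the deletion. None of the 10 genes reached a log2 ratio of 1 in either direction, where 1.08% of all promoters were at least 1 and 0.0805% at most -1. On the scaled pileup the median log2 ratio was -0.41 for the clock genes and -0.26 for all promoters.

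Other promoters of the same range of strength also stood lower in the deletion library. Over the 6245 promoters whose WT scaled pileup lay within the range of the 10 genes, 74.9 to 172, the median log2 ratio was -0.08 in fold enrichment and -0.36 in scaled pileup, and 68.2% were lower in fold enrichment. This moves in the direction of the clock genes' values, and its part in them was not tested.

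The counts behind single promoters were small. At *Cry2* the summit held 61 tags in WT and 70 in the deletion, a ratio of scaled pileups of 0.661 (95% interval, 0.462 to 0.947). At *Nr1d2* it held 62 and 69 tags, a ratio of 0.641 (0.448 to 0.918). These were the 2 genes whose interval left out 1. The other 8 intervals included 1: *Per1* had 0.736 (0.508 to 1.07) on 54 and 69 tags, *Clock* 0.725 (0.425 to 1.25) on 27 and 34 tags, and *Cry1* 1.03 (0.643 to 1.69) on 29 and 52 tags. Intervals are exact conditional binomial intervals and cover counting error in 1 library a genotype, not the spread between animals. Promoters in general had a scaled ratio under 1. It was lower in the deletion at 78.5% of all promoters, with a median log2 ratio of -0.26, and -0.36 over those of the same range. An interval that leaves out 1 therefore does not by itself set *Cry2* or *Nr1d2* apart from other promoters.

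**Figure D3:**
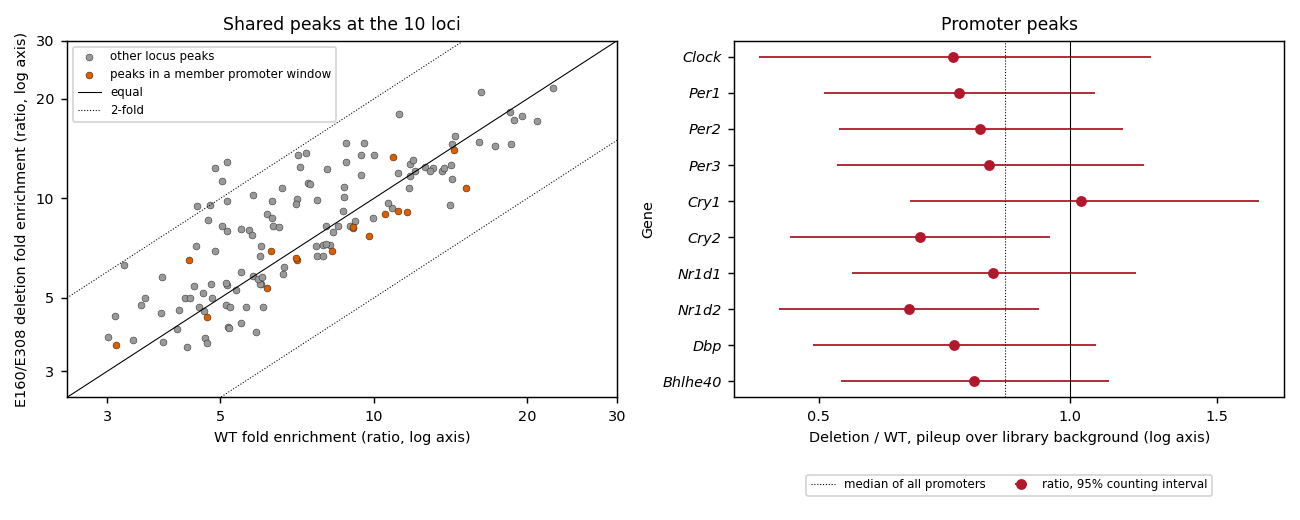
Left, fold enrichment in WT and in the E160/E308 deletion at the 139 peaks shared at the 10 loci (log axes; solid line, equal; dotted lines, 2-fold); right, ratio of deletion to WT summit pileup over library background at each clock promoter, with 95% counting intervals and a dotted line at the median of all promoters. The points follow the solid line with 5 above the upper dotted line and 0 under the lower one, and 8 of the 10 intervals on the right include 1.

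Counting every peak of a locus, promoters of the gene and of its neighbours included, the 10 loci held 104 peaks in Cho1, 168 in Cho2, 140 in WT and 198 in the deletion. This is 78.2, 125, 105 and 149 peaks per Mb, between 2.25 and 3.07 times the density over the whole genome. Gene loci in general are denser than the genome: over the same kind of locus at all 18101 genes the median was 44.2, 90.3, 58.4 and 105 peaks per Mb, and the median of the 10 clock loci was 80.2, 126, 104 and 151. The clock locus was above the median of all loci at 9, 8, 7 and 7 of the 10 genes. In WT the *Nr1d1* locus held 28 peaks and the *Per1* locus 23, although these genes are short, while *Nr1d2* held 5 and *Clock* 6. Many of the peaks belonged to neighbours: of the 140 WT peaks, 16 lay in the gene's own promoter window, 20 in its introns, 3 in its exons, 27 in the promoter of another gene, 23 in an intron and 7 in an exon of another gene, and 44 between genes. At 8 of 10 loci the strongest WT peak outside the promoter was at the promoter of a neighbour: *Tmem165* (*Clock*), *Vamp2* (*Per1*), *Hes6* (*Per2*), *Vamp3* (*Per3*), *Pex16* (*Cry2*), *Med24* (*Nr1d1*), *Nkiras1* and *Rpl15* (*Nr1d2*), and *Rpl18* (*Dbp*). Their WT fold enrichments ran from 11.8 at *Vamp2* to 20.9 at *Hes6*. At *Cry1* the strongest was an intergenic site 57.0 kb from the TSS, beyond the 3′ end of the gene, with 22.4 in WT, 21.5 in the deletion, 19.4 in Cho1 and 34.0 in Cho2. At *Bhlhe40* it was an intergenic site 32.6 kb downstream, with 14.4, 15.4, 41.0 and 20.3 in the same order.

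Inside the genes and outside the promoter window, WT had 23 peaks, 15 of which recurred in all 4 libraries. A peak was counted as recurring where another list had a summit within 150 bp of the same distance from a shared anchor near the start of the gene, since the lists use different genome builds. The 15 sites lay in 6 genes: *Per1*, *Per2*, *Cry1*, *Cry2*, *Nr1d1* and *Dbp*. Over all 140 WT peaks at the loci, 63 (45%) recurred in all 4 libraries, 54 in 3 and 13 in 2. For the other 10 no other list had a summit within that distance, but 9 of these intervals overlapped a deletion peak, among them the *Per3* promoter peak. Recurrence was not counted for peaks outside these loci, so these counts do not set the clock loci apart.

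By WT fold enrichment, the strongest of the 15 was the *Cry1* site 23.1 kb into the gene, in the first intron, whose sequence with both ROR/REV-ERB cores is printed above. REV-ERB and ROR act on *Cry1* through elements in this intron, as is known from other tissues. Its fold enrichment was 11.0 in Cho1, 30.2 in Cho2, 16.3 in WT and 20.9 in the deletion, higher than the *Cry1* promoter in the last 3 and lower in Cho1. Its scaled pileup was 63.8 in WT (23 tags) and 60.7 in the deletion (38 tags), a ratio of 0.951 (0.552 to 1.67). By that measure the intron site stood below the *Cry1* promoter in every library. A second *Cry1* intron site in all 4 libraries, 1129 bp from the TSS, had a fold enrichment of 11.0, 6.11, 6.65 and 5.91 in Cho1, Cho2, WT and the deletion.

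*Per2* had 3 intron sites open in all 4 libraries. The one 30.5 kb from the TSS had a fold enrichment of 4.65 in Cho1, 29.6 in Cho2, 14.2 in WT and 14.7 in the deletion, and the one at 13.0 kb had 7.18, 26.1, 9.44 and 13.6. In fold enrichment, both were higher in Cho2 than the *Per2* promoter and lower in Cho1. On the scaled pileup both stood below the promoter, at 47.0 and 66.4 against 193 in Cho2 and at 55.5 and 41.6 against 133 in WT. The third, at 2.66 kb, had between 4.65 and 6.15 in the 4 libraries.

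The remaining sites in all 4 libraries lay in *Cry2*, *Nr1d1*, *Dbp* and *Per1*. *Cry2* had 5, from 2.57 to 10.1 kb into the gene, with a WT fold enrichment of 4.43 to 7.73; the one at 10.1 kb, which carries the pair of E-boxes, had 4.22 in Cho1, 4.76 in Cho2, 4.54 in WT and 4.69 in the deletion. The *Nr1d1* site with the D-box had 23.6, 7.33, 7.96 and 6.71, higher than the *Nr1d1* promoter in Cho1 and lower in the other 3. A second *Nr1d1* site, at 2285 bp, held an E-box and had 13.1, 7.16, 3.56 and 5.00. In *Dbp* an exon site 2740 bp from the TSS held an E-box and an E′-box and had 4.65, 4.76, 5.93 and 5.70.

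*Per1* had its sites at 1966 bp, with the CRE, and at 3587 bp, with the E-box. The second lies on the RefSeq promoter printed above, since the 5′ end annotated for the *Per1* gene is upstream of that start. The site with the CRE had a fold enrichment of 10.1, 4.89, 4.26 and 5.00 in Cho1, Cho2, WT and the deletion, and the site with the E-box had 9.29, 4.26, 4.67 and 3.77. On the scaled pileup the CRE site reached 105 in WT and 109 in the deletion, and the E-box site 117 and 83.0.

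**Figure D4:**
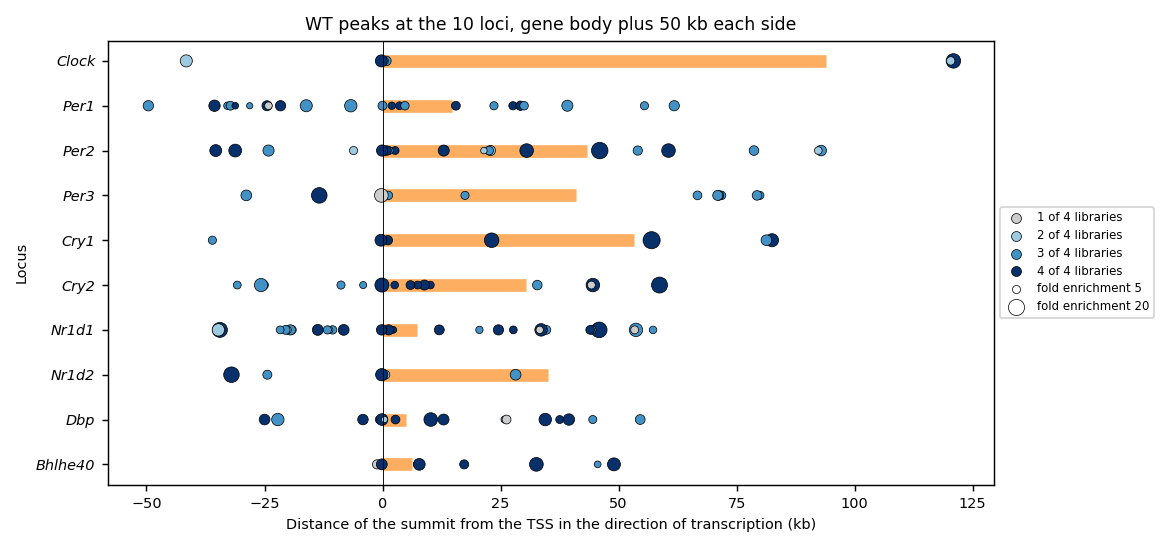
WT peaks at the 10 clock loci by distance of the summit from the TSS in kb; bars are gene bodies, circle area follows the WT fold enrichment, and colour gives the number of libraries, of 4, whose summit stood within 150 bp of that distance. The *Cry1* row shows its first-intron site at 23.1 kb and the intergenic site at 57.0 kb as its largest circles, and the *Per1* and *Nr1d1* rows hold 23 and 28 peaks.

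Motifs were counted in the 201 bases around the summits of the 140 WT peaks. An E-box was in 13 (9.29%), against 3.81% of all 90971 WT peaks. An E′-box was in 5.71% (all, 3.23%), a D-box in 2.86% (0.625%), the ROR/REV-ERB core in 2.86% (1.65%) and a CRE in 2.14% (0.822%). Peaks near a TSS differ in motif content from others: over all WT peaks 6.89% of those within 1 kb of a TSS held an E-box and 3.19% of the rest. At the clock loci an E-box was in 2 of 43 peaks near a TSS and in 11 of the 97 others. The E-box peaks inside a clock gene or its promoter window were at *Per1*, *Cry2*, *Nr1d1*, *Nr1d2*, *Dbp* and *Bhlhe40*. The rest of the 13 lay between genes or in neighbouring genes. The peaks of a locus share their neighbourhood and are not independent of each other.

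Of the 140 WT locus peaks, 139 overlapped a deletion peak by at least 1 bp, which is 99.3%, where the share of all WT peaks was 95.9%. The exception lay in an intron of *Thra*, the neighbour of *Nr1d1*, with a WT fold enrichment of 4.16 on 8 tags. Of the 198 deletion peaks, 131 overlapped a WT peak, which is 66.2%, where the share of all deletion peaks was 49.4%. The shares at the loci moved to 77.3% of WT peaks and 88.0% of deletion peaks when every list was limited to the same number of strongest peaks. The shares of all peaks at that list length were not computed, so the loci cannot be set against them there. The 67 deletion peaks at the loci without a WT overlap were weak, with a median fold enrichment of 4.36. They were spread over all 10 loci with 4 to 9 in each, and 14 of them lay inside a clock gene. The 3 strongest were a *Per3* intron site 27.1 kb from the TSS (12.9), an *Nr1d2* exon site at 34.6 kb (12.9) and another *Per3* intron site at 37.6 kb (10.4). The last was also found in both Cho replicates and the *Nr1d2* site in Cho1. The deletion list is the longest of the 4, and 29 of the 67 sites had a summit at the same distance in at least 1 Cho replicate. The matching share for deletion peaks outside these loci was not counted.

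At the 139 shared peaks the median log2 ratio of fold enrichment, deletion over WT, was 0.05, against 0.28 over all 87274 shared peaks. Of the 139, 5 (3.60%) had a log2 ratio of at least 1, against 7.79% of all, and 0 had one of at most -1, against 0.0710% of all. The 43 near a TSS had a median of -0.10 (all such peaks, 0.08) and the 96 others 0.13 (all, 0.33). By locus, the median ran from -0.10 at *Per1* (23 peaks) to 0.43 at *Per3* (12 peaks). Inside the clock genes, away from their promoters, no peak reached a log2 ratio of 1; the 23 values ran from -0.38 to 0.96, with a median of 0.13.

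The 3 highest ratios were a *Med24* intron site in the *Nr1d1* locus (log2 ratio 1.34, 9 tags in WT and 35 in the deletion), an intergenic site 36.0 kb upstream of *Cry1* (1.33, 6 and 20 tags) and a *Sult2b1* intron site in the *Dbp* locus (1.17, 6 and 21 tags). The scaled ratio of the first was 2.24 (1.05 to 5.30), and the intervals of the other two included 1. The deletion peak of the first also overlapped a stronger *Med24* WT peak of 27 tags, for which the log2 ratio was -0.15 and the scaled ratio 0.746 (0.439 to 1.28). The 3 lowest were an intergenic site 66.7 kb from the *Per3* TSS (-0.58), a *Mapk8ip1* intron site in the *Cry2* locus (-0.56) and the *Cry2* promoter (-0.49). The deletion peak at *Mapk8ip1* also overlapped another, weaker WT peak, for which the log2 ratio was 1.01. Over the 139 peaks, 6 intervals of the scaled ratio left out 1, 1 above and 5 below, and the 1 above was the *Med24* peak whose deletion peak is shared with a stronger WT peak. Among the 5 below were the *Cry2* and *Nr1d2* promoters, and promoters in general had a scaled ratio under 1.

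Most promoters of the other clock genes were open too. Of a wider list of 16 genes, 15 were found in both annotations (*Ciart* was not), and 13 in Cho1, 13 in Cho2, 14 in WT and 14 in the deletion had a promoter peak. Over all genes the share with a promoter peak was 58.6%, 64.7%, 62.0% and 67.8% in the same order, so most promoters of any kind were open. The start of any annotated transcript, used for some of these genes in place of the gene 5′ end, was tried after the data were seen. *Arntl*, which encodes BMAL1, had a fold enrichment of 27.0 in Cho1, 14.3 in WT and 13.2 in the deletion and no summit within 1 kb of its RefSeq 5′ end in Cho2; with the start of any annotated transcript it had one. *Bhlhe41* (DEC2) lacked a promoter peak in Cho2 with either definition, and had 5.07, 5.57 and 6.05 in the other libraries. *Csnk1e*, a kinase of PER proteins, had one in Cho2 alone (16.0); with the start of any annotated transcript it had one in all 4 libraries.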

How the data were processed

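The 10 genes, the wider list and the motifs were chosen with earlier results of these data known. Per the study methods and the submitters' processing notes, the authors trimmed reads with fastp, aligned them with Bowtie2 2.4.4, removed duplicates and called peaks with MACS2 2.2.4 at a q-value of 0.05, 1 deposited list per library. The deposited fold enrichment is a ratio at the summit; the authors' lists also give −log10 of the p-value and −log10 of the q-value.

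The first Cho replicate (Cho1), WT and the deletion use NCBIM37 (mm9) positions, annotated with GENCODE. The second (Cho2) was read as GRCm38 (RefSeq genes), although mm9 is stated: 325 of its peaks ended past an NCBIM37 chromosome end, and 64.7% of promoters held a peak with GRCm38 positions against 17.1% with NCBIM37. No coordinates were converted. Sites were compared across builds by distance from a shared RefSeq promoter sequence, or from the gene 5′ end for *Per2* and *Bhlhe40*. Where an interval was listed more than once, the entry with the highest fold enrichment was kept.

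Summit pileups were solved from fold enrichment and p-value under a Poisson model (tolerance 0.001 on −log10 p), for at least 99.96% of entries in each list. On simulated data 99.8% to 100% were recovered. Library background was the most frequent background: 1.37 tags in Cho1, 1.96 in Cho2, 0.361 in WT and 0.626 in the deletion. Total read depth per library is unknown from the files; the backgrounds stand in for it. Scripts ran in Python 3.11.15 (scipy 1.17.1, pandas 2.3.3, numpy 2.4.6).

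Named beside the 10 promoters are, at each locus, the strongest WT peak outside the promoter window; over all loci the 3 highest and 3 lowest log2 ratios, and the strongest WT and deletion peaks without overlap, up to 3 each; and genes of the wider list without a promoter peak in a library, of which 1 is not reported here. Sites inside the genes were named after their values were seen, for being open in all 4 libraries or for a motif. Alternatives changed the window, the flank, the q-value, the overlap, the TSS, the scale and the number of peaks. Members are genes, not replicates, so no test over them was made.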

Additional observations from a re-analysis of the deposited data

How the results depend on the processing

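No paired analysis was possible because each genotype has 1 library and no result comes from a test. The count of clock promoters with a peak stayed at 9 or 10 in each library under all 6 alternatives; *Per1* dropped out of the deletion list when every list was limited to its 76242 strongest peaks. The Cho mean of the replicate medians of promoter fold enrichment, 15.4, was 13.3 without replicate 1 and 17.5 without replicate 2; on other scales it was 101 as scaled pileup and 50.6 as percentile. The promoter log2 ratio, deletion over WT, had a median of -0.24 and stayed within counting error of that under 8 alternatives, but was 0.15 from −log10 q-values and -0.91 against Cho1, whose background is constant. With a flank of 20 kb the loci held 65, 98, 76 and 109 peaks in Cho1, Cho2, WT and the deletion; with 100 kb Cho2 held 276 and the deletion 306. At equal numbers of peaks Cho2 held 88 and the deletion 92, so the larger counts of these lists do not outlast an equal length. The share of WT locus peaks overlapping a deletion peak was then 77.3% (100% with a flank of 20 kb), and that of deletion peaks overlapping a WT peak 88.0% (56.6% when at least 50% had to overlap). The shares over all peaks were not computed under these alternatives. The median log2 ratio at shared locus peaks was -0.15 from scaled pileups, -0.23 relative to all shared peaks, -0.037 with a flank of 20 kb, 0.13 without peaks at a TSS and -0.27 against Cho1, so its sign is not settled. With 500 bp on each side of the TSS, 5 clock genes had an E-box, 5 an E′-box, 2 a D-box and 1 the ROR/REV-ERB core; with 50 bp on each side of the summit 2.14% of locus peaks held an E′-box. Depth limits single peaks: with 27 to 72 tags at a promoter summit in WT and the deletion, a ratio of 0.7 cannot be told from 1 at most of them.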
